A study of Homo sapiens with 2 samples.

Results

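Among the TARBP2-bound regions of MDA-LM2 cells, 1521 lay alone on their stretch of chromosome. They were chosen by position: on chromosomes 1 to 22, no other listed region of either strand lay within 200 kb of their start or end. They made up 6.76% (95% exact Clopper-Pearson interval 6.43 to 7.09%) of the 22514 regions on these chromosomes, out of 23412 in the whole list. MDA-LM2 is an established human line, derived from breast cancer cells by selection for lung metastasis, and the cells had received a vector for myc-tagged TARBP2. After 48 hours they were UV cross-linked, and RNA held by the tagged protein was pulled down with an anti-myc antibody and sequenced (HITS-CLIP). There was 1 group of 2 replicates, with no untransfected or untagged control among the samples analysed here, and the bound protein is the transfected one, not the cell's own. The 2 replicates share 1 list of regions on the hg19 build with a score of 1 each, so neither the depth behind a region nor its presence in each replicate is known. Whether they were separate cultures is not stated.

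TARBP2 binds double-stranded RNA, such as the stem of a hairpin, with little regard to its sequence, and is best known as the partner of Dicer in the making of microRNAs. Such stems can form wherever RNA is made, including the long introns of unspliced transcripts and noncoding RNA between genes. Much of the human genome lies in gene deserts, which are long stretches without protein-coding genes, or in the introns of very long genes, and either could leave a bound region without neighbours. Neither the hg19 genome nor a gene annotation on it was used, so no region was assigned to a gene, intron or desert and no sequence is given. The relation to genes is described below by chromosome only.

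The rule used the distance between regions, so the distances are given as a description. The nearest other region lay at a median of 327 kb from an isolated region (quartiles 248.9 and 473 kb, 90th percentile 692 kb). It lay more than 500 kb away for 327 regions and more than 1 Mb away for 39. Isolated regions with a neighbour on both sides numbered 1506, and each sat in an otherwise empty stretch of 409 kb or more, with a median of 1038 kb. The other 15 were the first or last listed region of a chromosome. Membership near the limit was a matter of few bases: the regions just inside it had a nearest neighbour at 200.138 kb (chromosome 2, 242876085 to 242876333) and 200.142 kb (chromosome 16, 71352884 to 71353092). A pair on chromosome 18 (8240623 to 8241047 and 8441048 to 8441250), exactly 200 kb apart, fell just outside it, as did a region on chromosome 12 (113446500 to 113446745) with a neighbour at 199.875 kb.

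The 10 most isolated regions lay on 10 different chromosomes. First was a minus-strand region of 163 nt on chromosome 19 (28358021 to 28358183), with the nearest region 2087 kb to its right and 4089 kb to its left. Next was a minus-strand region of 201 nt on chromosome 18 (37258520 to 37258720), with empty stretches of 2083 and 2269 kb. On chromosome 6, a minus-strand region (94850569 to 94850817) had none within 1803 kb. Plus-strand regions on chromosome 11 (26288533 to 26288766, 234 nt) and chromosome 17 (51183672 to 51183943, 272 nt) had none within 1621 and 1576 kb. The other 5 lay on chromosomes 8, 13, 1, 14 and 4, with 1379 to 1539 kb to the nearest region. The region of chromosome 8 (176693 to 177008) was the first listed on its chromosome and was measured on its right side only. Of these 10 regions, 6 were on the minus strand.

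Many isolated regions followed each other. Of the 1521, 1084 (71.3%) stood next to another isolated region, with no other listed region between them. This follows in part from the rule, since the neighbour of an isolated region already has over 200 kb clear on 1 side, and it was not tested. They formed 801 runs, of which 437 held 1 region and 40 held 5 or more. The run with the most members held 12 regions over 6.05 Mb of chromosome 6 (119237487 to 125286924). Its members, 6 on each strand, were 200 to 445 nt long and lay 229.9 to 1799.9 kb apart. There were 5 runs of 8 regions. Those of chromosome 1 (78829774 to 85333861), chromosome 7 (117587780 to 122600284) and, spanning 4.14 Mb, chromosome 2 (145501038 to 149639416) held minus-strand regions alone. Those of chromosome 4 (130250073 to 134029619) and chromosome 8 (89893533 to 93179768) held 6 and 4 minus-strand regions.

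Chromosome 2 held the most isolated regions, with 151, followed by chromosome 4 with 123 and chromosome 1 with 118, whereas chromosome 19 held 10 and chromosome 22 held 14. Per Mb between the first and the last listed region of a chromosome, the median was 0.557 isolated regions, and 20 of 22 chromosomes lay between 0.397 and 0.665. The exceptions were chromosome 21, with 0.709, and chromosome 19, with 0.170. As a share of a chromosome's own regions the range was wider, from 1.06% (0.509 to 1.94%) on chromosome 19 to 13.8% (10.7 to 17.4%) on chromosome 13. Chromosomes 21 (13.1%), 4 (11.5%), 18 (10.4%) and 8 (10.4%) came next. The rule favours sparse chromosomes, because a region is more likely to be alone where fewer regions are listed, so these differences were not tested.

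**Figure D1:**
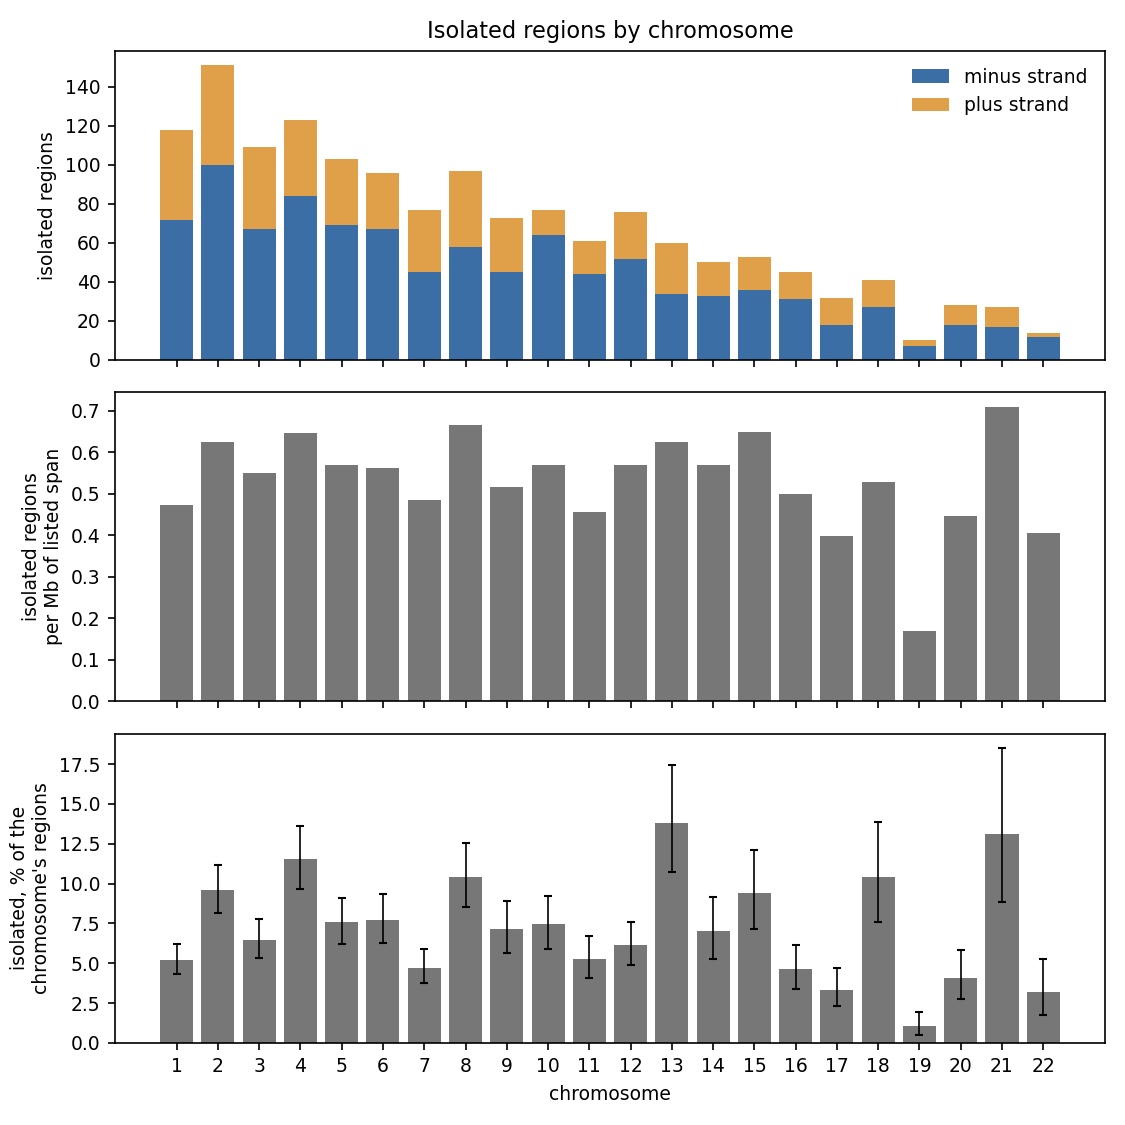
Isolated regions on chromosomes 1 to 22: number, split by strand (top), number per Mb from the first to the last listed region (middle), and percent of the chromosome's regions with 95% exact binomial intervals (bottom). Chromosome 2 has the most (151), chromosome 19 the fewest (10) and the lowest density (0.170 per Mb), and chromosomes 13 and 21 have the largest shares.

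The isolated regions of chromosome 19 lay in a limited part of it. Of the 10, 8 lay between 22540748 and 37336857, and the others were at 39982577 to 39982822 and 52181373 to 52181621. Their lengths ran from 103 to 494 nt, and 7 were on the minus strand. Chromosome 19 is the densest in genes: in GENCODE 29, an annotation of GRCh38, it has 25.2 protein-coding genes per Mb, against a median of 5.93 over the 22 chromosomes.

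Along the chromosomes, isolated regions were spread more evenly than the list as a whole. With each chromosome's listed span cut into 10 equal parts, the parts held 8.15 to 11.0% of isolated regions. The same parts held 7.38 to 13.3% of all regions, with the highest shares in the last (13.3%), the third (12.6%) and the first (12.0%). Isolated regions were at their lowest in the fifth part (8.15%) and the third (8.42%). This follows in part from the rule, which passes over crowded stretches.

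Chromosomes with fewer genes tended to have more isolated regions per Mb, with exceptions. Gene values were taken over the span of GRCh38 that holds a chromosome's protein-coding genes, which is not the listed span. Across the 22 chromosomes, isolated regions per Mb ran against protein-coding genes per Mb of GRCh38 (Pearson r = -0.87, Spearman rho = -0.72). Leaving out chromosomes 19 and 17, whose gene density is farthest from the median, gave r = -0.66. Isolated regions per Mb rose with the share of a chromosome's span lying in gaps over 500 kb between protein-coding genes (r = 0.67, rho = 0.61). That share was 11.3% on chromosome 19 and 44.4% on chromosome 13, and without these chromosomes r was 0.56. Chromosome 18 went against both relations. Its gene density (3.35 per Mb) was close to that of chromosome 13 (3.37 per Mb), and 42.8% of its span lay in such gaps. Yet it had 0.527 isolated regions per Mb, below the median of 0.557. Chromosome 9, with 41.0% in such gaps, had 0.518 isolated regions per Mb. The relation to very long genes was weaker. For the length of protein-coding genes over 500 kb as a share of the span, r was 0.49 and rho 0.32. Without chromosomes 3 and 19, r was 0.24. These relations are descriptions over chromosomes that share 1 list. The density of all listed regions moved with them (r = -0.89 with isolated regions per Mb), and its part in them was not tested. Gaps between genes include centromeres, and the listed span behind the values per Mb can include them too. The longest otherwise empty stretch around an isolated region was 22571 kb, and the span was not corrected for such stretches. Whether this shaped the exceptions was not tested. Values by chromosome do not show whether any region lies in a desert or in a long gene.

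**Figure D2:**
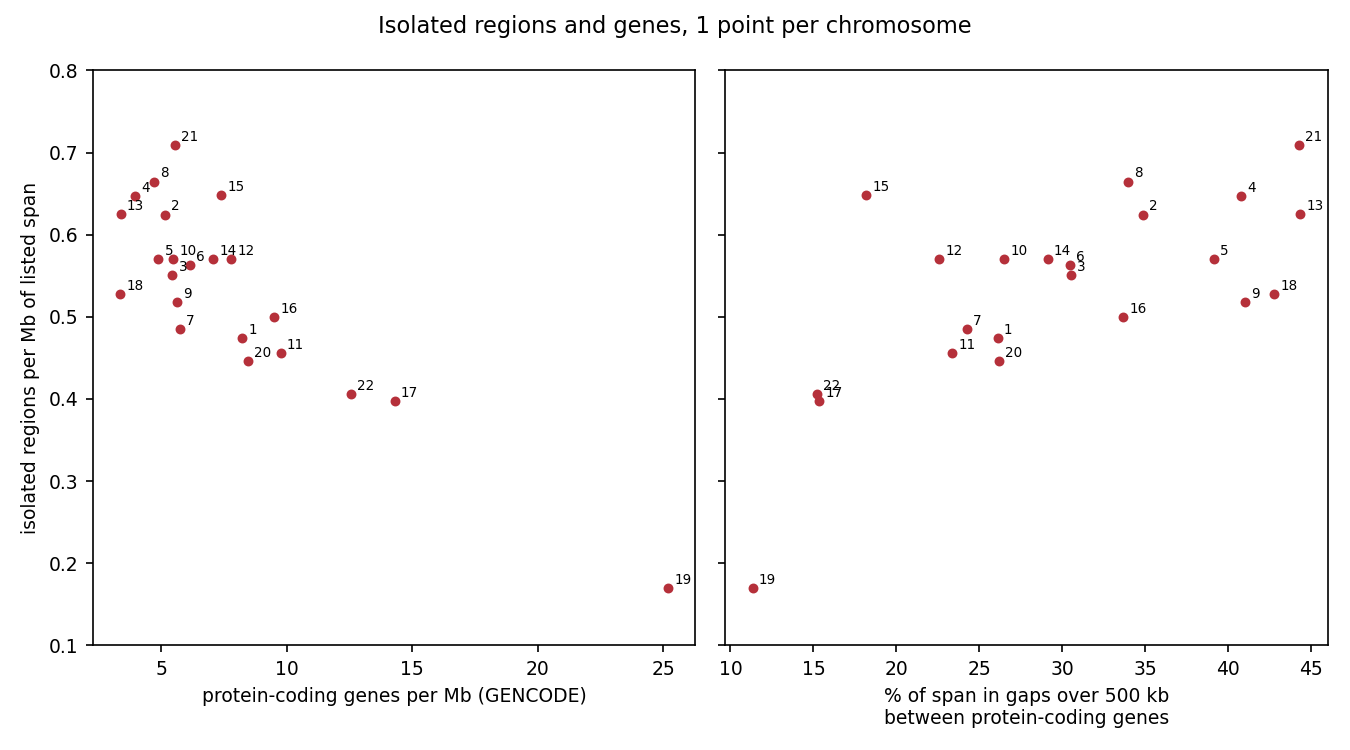
Isolated regions per Mb of listed span (vertical axis, from 0.1) against protein-coding genes per Mb of GRCh38 (left) and the percent of the chromosome's span in gaps over 500 kb between protein-coding genes (right). Each numbered point is a chromosome; chromosome 19 lies apart, at 25.2 genes per Mb and 0.170 isolated regions per Mb.

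Strand and length were not used directly by the rule, so isolated regions were compared with the 20993 other regions of the same chromosomes. Length may still not be independent of it. Every region's name begins with the word merge, and no source used here says what was merged. If nearby regions were joined, length would depend on spacing, which the rule used. This was not tested. Differences were taken within each chromosome and tested by the exact sign test, two-sided, over the 22 chromosomes, with Benjamini-Hochberg adjustment over 4 tests. Chromosomes are not replicates of the experiment, so the p-values measure agreement between chromosomes and not between cultures. A second comparison used the 9360 other regions that had no region of either strand within 10 kb, since regions in dense stretches may differ from solitary ones in general.

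A single length was by far the most common in the list. It lies between 240 and 250 nt, its exact value is written on the axis of the plot by distance, and it is called the modal length here. Isolated regions were short and of similar length. The shortest was 101 nt and the longest 2358 nt. Their median was the modal length itself, with a lower quartile of 234 nt and a 90th percentile of 290 nt, whereas the other regions had a median of 256 nt and a 90th percentile of 593 nt. The median of isolated regions was lower on 17 chromosomes, higher on 0 and equal on 5 (exact sign test, adjusted p = 2.03e-05). Without regions of the modal length the medians were 245 and 285 nt, lower on 22 of 22 chromosomes. Against regions with none within 10 kb, however, both medians were the modal length, and the call was lost (exact sign test, p = 0.125). With 18 chromosomes tied and 4 lower, this test could not reach the threshold, so it does not decide whether lengths differed.

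The lengths differed most at the upper end. Only 47 isolated regions (3.09%, 2.28 to 4.09%) were longer than 400 nt, against 23.9% of the other regions and 9.53% of those with none within 10 kb. Both differences held on 22 of 22 chromosomes (exact sign test, p adjusted over 12 comparisons chosen after the values were seen = 2.86e-06). A single isolated region exceeded 1000 nt, against 513 (2.44%) of the others. At the lower end, 179 isolated regions (11.8%, 10.2 to 13.5%) were under 200 nt, against 6.83% of the others (higher on 21 of 22 chromosomes, exact sign test, adjusted p = 3.29e-05) and 9.38% of those with none within 10 kb (higher on 19, adjusted p = 0.00128).

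The single region over 1000 nt was 2358 nt long, on the plus strand of chromosome 21 (9825441 to 9827798), and was the first listed on that chromosome, with the next at 665 kb. After it came a plus-strand region of 957 nt on chromosome 7 (17384186 to 17385142). A minus-strand region of 721 nt followed on chromosome 12 (127650267 to 127650987), and a plus-strand region of 649 nt on chromosome 2 (181905854 to 181906502), whose nearest neighbour lay at 939 kb. The other 6 of the 10 longest were 513 to 587 nt. The shortest was a plus-strand region of 101 nt on chromosome 15 (28981543 to 28981643).

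The modal length was more common among isolated regions than among all other regions together, but not than among the sparsest of these. It was the length of 477 isolated regions (31.4%, 29.0 to 33.8%), against 18.8% (18.3 to 19.3%) of the others. The second most common length of isolated regions, 248 nt, was found 32 times. The share was higher on 21 of 22 chromosomes (exact sign test, adjusted p = 2.03e-05), with chromosome 21 the exception. Among regions with none within 10 kb it was 26.3% (25.4 to 27.2%), and isolated regions were above this on 19 of 22 chromosomes (exact sign test, p = 0.000855). Against regions with none within 50 kb, a comparison chosen after the values were seen, the difference shrank from 12.6 to 0.640 percentage points (exact sign test, p = 0.134). At a distance of 500 kb in place of 200 kb the difference from all other regions was 9.87 points (exact sign test, p = 0.0525). Regions 100 to 200 kb from their nearest region, which are not isolated, had the modal length in 32.0% (29.8 to 34.3%).

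Among isolated regions, the modal length was mainly found on the minus strand. It was found in 413 of 1000 minus-strand regions (41.3%, 38.2 to 44.4%) and in 64 of 521 plus-strand regions (12.3%, 9.59 to 15.4%). The minus-strand share was the higher one on 22 of 22 chromosomes (exact sign test, adjusted p = 1.91e-06). The adjusted p-values that follow in this paragraph are over the 12 comparisons chosen after the values were seen. The gap between strands was 29.0 percentage points in isolated regions and 18.0 points in the others. It was larger in isolated regions on 19 of 22 chromosomes (exact sign test, adjusted p = 0.00128). Sparse regions that were not isolated had gaps of similar size: 26.5 points in those with none within 10 kb and 31.3 points in those 100 to 200 kb from their nearest region. Isolated minus-strand regions exceeded other minus-strand regions (25.9% of modal length) on 21 chromosomes (exact sign test, adjusted p = 3.29e-05). Against minus-strand regions with none within 10 kb (36.5%) the difference fell from 15.4 to 4.83 points, with the same sign on 18 of 22 chromosomes (exact sign test, adjusted p = 0.00579). On the plus strand the difference, 12.3% against 7.95%, had the same sign on 14 chromosomes and did not pass the exact sign test (adjusted p = 0.344). Against plus-strand regions with none within 10 kb (9.96%) it was split, higher on 11 chromosomes and lower on 11.

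With the modal length left out, 457 plus-strand and 587 minus-strand isolated regions remained. Lengths of at least 240 and under 260 nt then made up 35.0% (30.6 to 39.6%) of the plus-strand and 27.4% (23.9 to 31.2%) of the minus-strand regions, which are 160 and 161 regions. In all other regions the same shares were 24.6 and 15.5%. Lengths above the modal one made up 33.5% (29.2 to 38.0%) of the plus-strand and 45.1% (41.1 to 49.3%) of the minus-strand isolated regions, against 64.9 and 73.0% in all other regions. These strand differences were not tested.

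**Figure D3:**
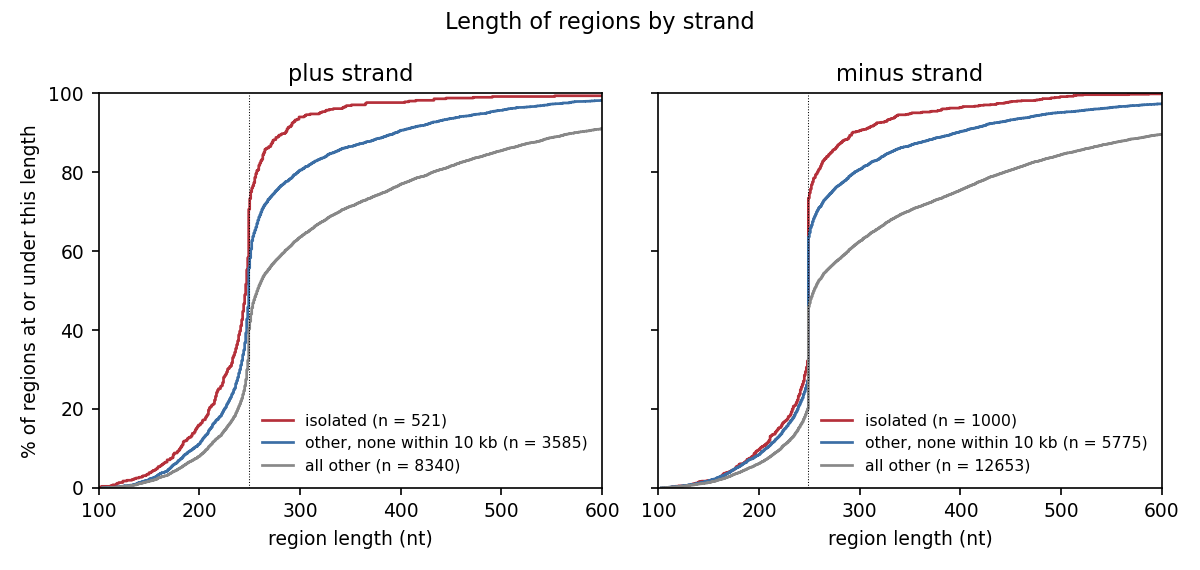
Cumulative length of regions on the plus strand (left) and minus strand (right): the vertical axis is the percent of regions at or under the length on the horizontal axis (nt, shown to 600), for isolated regions, other regions with none within 10 kb, and all other regions. The step at the dotted line (the modal length) is 41.3% of isolated minus-strand and 12.3% of isolated plus-strand regions, and the isolated curve lies above the others beyond it.

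Isolated regions of the minus strand numbered 1000, and those of the plus strand 521. The minus strand thus had 65.7% (63.3 to 68.1%) of them, against 60.3% (59.6 to 60.9%) in the other regions. The share was higher in isolated regions on 17 of 22 chromosomes (exact sign test, adjusted p = 0.0169). Against regions with none within 10 kb (61.7% minus) the difference was 4.05 points, higher on 17 chromosomes and lower on 5 (exact sign test, p = 0.0169). The share in isolated regions ranged from 56.3% on chromosome 17 (18 of 32) to 85.7% on chromosome 22 (12 of 14), and was 83.1% on chromosome 10 (64 of 77). The difference from all other regions moved with the regions of modal length, which were 86.6% minus among isolated regions. Without them the minus share was 56.2% (53.2 to 59.3%) in isolated regions and 55.0% in the others, a difference of 1.25 percentage points with the same sign on 12 of 22 chromosomes (exact sign test, p = 0.832). The call also depended on the definition of isolation. At distances of 100 and 500 kb the difference was 4.97 and 4.56 points and missed the threshold of the exact sign test (p = 0.0525 and p = 0.286). Against other regions with none within 50 kb it shrank to 2.19 points (exact sign test, p = 0.523). With neighbours of the same strand only, the difference turned to -7.48 points (lower on 18 of 22 chromosomes, exact sign test, p = 0.00434). Fewer regions are listed on the plus strand (8861) than on the minus strand (13653), and the part of this in the reversal was not tested.

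Seen over all distances, the change was gradual and most of it came before 200 kb. The modal length made up 11.6% of minus-strand regions where the nearest region lay at most 1 kb away, 21.0% at 1 to 10 kb, 32.6% at 10 to 50 kb and 40.9% at 50 to 100 kb. At 100 to 200 kb the share was 43.2%, and at 200 to 500 kb it was 41.3%. On the plus strand the share went from 5.41% to 11.9% over the bins up to 200 kb and was 13.8% at 200 to 500 kb. Beyond that, plus-strand shares were 6.80% (7 of 103) up to 1 Mb and 9.09% (1 of 11) past it, and minus-strand shares 43.2% (80 of 185) and 28.6% (8 of 28), with wide intervals. The minus share of all lengths was 58.5% at 1 kb or less, 64.1% at 100 to 200 kb and 65.9% at 200 to 500 kb. In the 39 regions beyond 1 Mb it was 71.8% (55.1 to 85.0%), an interval that spans the values of all other bins. The median length was 375 nt at 1 kb or less, 274 nt at 1 to 10 kb, and the modal length in each bin beyond. Regions 100 to 200 kb from their nearest neighbour thus had values close to those of isolated regions, and the intervals of the bins on either side of 200 kb overlapped. These bins were chosen after the values were seen and are given without a test.

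**Figure D4:**
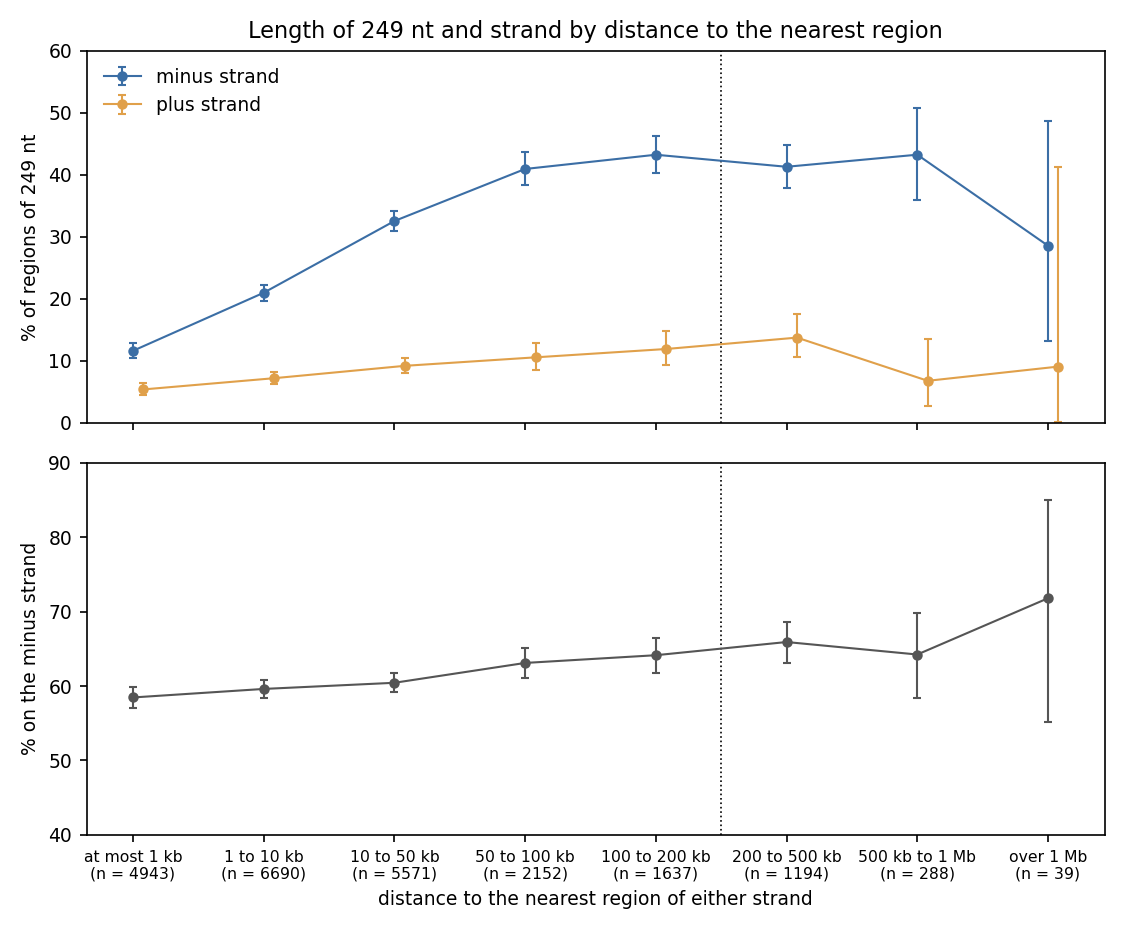
Percent of regions of the modal length by strand (top, points of the plus strand drawn slightly to the right) and percent of regions on the minus strand (bottom, axis from 40%) in 8 bins of distance to the nearest region of either strand, with 95% exact binomial intervals. The dotted line marks 200 kb; isolated regions are the 3 bins to its right, whose values overlap those of the bin from 100 to 200 kb.

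Isolated regions matched the strand of their nearest neighbour little more often than unrelated strands would. Both lay on the same strand for 876 of 1521 isolated regions (57.6%, 55.1 to 60.1%). If the strands of these regions and of their nearest neighbours (66.2% minus) were unrelated, 55.1% would match. Some regions are each other's nearest, so these pairs are not all separate. Close neighbours shared a strand more often, in 87.5% of regions with a neighbour at most 1 kb away, 80.5% at 1 to 10 kb and 63.1% at 10 to 50 kb. The share was lowest at 50 to 100 kb (53.9%) and 100 to 200 kb (53.7%). Among isolated regions it was 56.8% up to 500 kb, 59.7% up to 1 Mb and 66.7% (49.8 to 80.9%) in the 39 beyond.

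Isolated regions were alone in the list, and the numbering of the names had gaps beside nearly all of them. Each name carries a number that rises along each chromosome and strand, and numbers are skipped between listed regions. No source used here says what the skipped numbers stood for. Between an isolated region and the next listed region on its strand, a median of 9 numbers were skipped on each side (quartiles 5 and 15, at most 99). The next number was listed on at least 1 side for 50 isolated regions (3.29%, 2.45 to 4.31%), against 40.9% of the other regions. Per Mb of the gaps beside isolated regions, 11.6 numbers were skipped per strand, fewer than the 26.4 per Mb beside other regions. The rate was 12.5 per Mb beside isolated minus-strand and 10.4 per Mb beside isolated plus-strand regions. On the opposite strand, the gap that spanned an isolated region covered both of its sides. It skipped a median of 20 numbers, and 1 of 1503 such gaps skipped none. Per Mb, these gaps skipped 10.6 numbers, near the 11.6 on the region's own strand. Since the rule chose regions with long gaps, these values are a description.

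**Figure D5:**
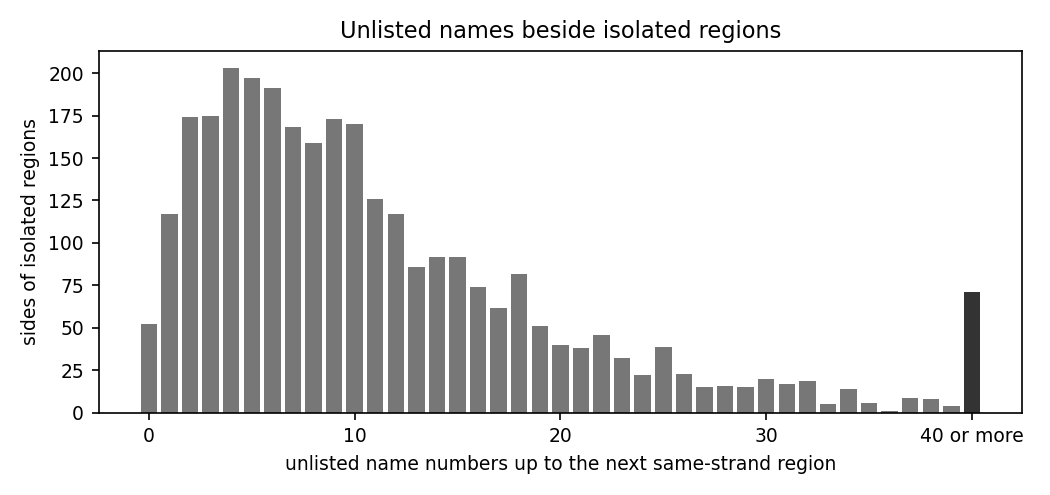
Number of name numbers skipped between an isolated region and the next listed region on its strand (horizontal axis), for 3021 sides of isolated regions (vertical axis: sides; the dark bar gathers 40 or more). On 52 sides no number was skipped, and the median is 9.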

How the data were processed

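TARBP2 HITS-CLIP was done in MDA-LM2 cells as 1 group of 2 replicates. Per the submitters' processing notes, the aligner was Bowtie and the build hg19. How regions were called, filtered, joined and combined over replicates was not stated in any source used. The authors deposited 1 list with a score of 1 for each region, which carries no height, and 0-based starts, printed here 1-based. Depth is therefore unknown. The modal length, taken from the list as its most common one, was 249 nt.

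Distances were counted as the nt between the ends of regions, and isolated regions had more than 200000 nt on both sides. Shares have 95% exact Clopper-Pearson intervals, which cover counting error only. Groups were compared by two-sided exact sign tests over 22 chromosomes. The tests were tried on simulated lists that drew strand and length separately for each region. In these data close neighbours often share a strand, so the simulation does not show how the tests behave here. Gene numbers per chromosome came from GENCODE 29 on GRCh38, with no conversion of coordinates. The members, tests and lists were chosen with earlier results of these data known. Regions named were the 10 most isolated, the 10 longest, some just inside and outside the limit, and the chromosomes with most and fewest. The shortest region, the runs and the regions of chromosome 19 were added after their values were seen. Assignment to genes and sequence features were planned and not run, since no genome or annotation on hg19 was used. Alternatives were other distances, neighbours, chromosomes, comparison groups and length windows. Tools were matplotlib 3.10.9, pandas 2.3.3, scipy 1.17.1, numpy 2.4.6 and Python 3.11.15.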

Additional observations from a re-analysis of the deposited data

How the results depend on the processing

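There were 37 alternative values, and 24 of them stayed on the same side of the threshold with the same sign or, for counts, within 1.5 times. The number of isolated regions (1521) moved to 3158 at a distance of 100 kb, 327 at 500 kb and 3122 with neighbours of the same strand only, by construction of the rule. The difference in minus share (5.47 percentage points) lost its call at 100 kb (4.97 points) and 500 kb (4.56 points), without regions of modal length (1.25 points) and against other regions with none within 50 kb (2.19 points). It reversed with neighbours of the same strand only (-7.48 points). The difference in the share of modal length (12.6 points) lost its call at 500 kb (9.87 points), where fewer regions remain, and against regions with none within 50 kb (0.640 points). The difference in median length (-7 nt) was 0 nt against regions with none within 10 kb or 50 kb. In each of these 18 chromosomes were tied, so the sign test could not reach the threshold. The cause of the lost calls was not tested. The gap between strands in modal length kept its call in each of its alternatives, at 22.9 to 34.3 points. The highest chromosome exceeded the lowest 4.18-fold per Mb and 27.5-fold per 100 protein-coding genes. No paired analysis was possible because the list has 1 group and no column per replicate, and no replicate could be left out. Settings for genes and for sequence were not run. With depth unknown, regions resting on few reads cannot be told from others.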

Other observations

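Chromosome X was not among the chromosomes used for the selection. With it added, isolated regions numbered 1627 in place of 1521. The modal length was then 29.5 percentage points more frequent on the minus strand than on the plus strand, with the same sign on 23 of 23 chromosomes (exact sign test, two-sided, p = 2.38e-07).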
